A study of Equus caballus with 19 samples.

Results

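The genes described are the unfolded protein response and the chaperones of the secretory pathway, a set of 37 named genes that covers the stress sensors of the endoplasmic reticulum (ER), its folding machinery, its degradation machinery and part of its export machinery. Members were taken by gene name from the 29196 names of each normalised count table, and 36 of the 37 had a row in both tables. The remaining member, DERL3, was not analysed here.

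The libraries are RNA sequencing of tenocytes, the resident cells of tendon, from the superficial digital flexor tendon of wild type adult Thoroughbred horses. Cells of 8 donor lines were grown in 3D gels of bovine type I collagen for 14 days, and each condition of a line is 1 library. In the first batch, lines 1 to 5 were kept in control medium or with 1 nM interleukin 1 beta (IL-1β), and in the second batch, lines 6 to 8 were kept in control medium, with 1 nM IL-1β, or with 1 nM IL-1β plus 100 ng/ml of the IL-1 receptor antagonist protein (IL1Ra). All groups share the gel, the serum-containing medium and the culture time, IL1Ra without IL-1β was not analysed here, and a 3D gel of passaged cells holds neither the matrix nor the other cell types of tendon.

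The ER folds proteins bound for secretion, and fibroblasts of tendon secrete large amounts of collagen. Sensors in its membrane, encoded by ERN1 (IRE1), EIF2AK3 (PERK) and ATF6, respond when unfolded proteins accumulate. IRE1 splices the XBP1 transcript, ATF6 is cut to release a transcription factor, and PERK phosphorylates eIF2α, which slows translation and favours production of the transcription factor ATF4. XBP1 and ATF6 are known for raising chaperone and degradation genes, and ATF4 for raising genes of amino acid supply together with DDIT3 (CHOP). The tables hold 1 value per gene, so spliced and unspliced XBP1 were not separated.

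Normalised counts summed to 43.4 to 49.2 M (counts × 1e6) per library in the first batch, more than in the second batch, whose highest sum was 34.6 M. IL6, a target of IL-1 signalling, ranged from 90 to 865 normalised counts in the 5 controls and from 57342 to 129720 with IL-1β in the first batch. Of 8 tenocyte markers, TNMD was not detected in any library (at most 3 normalised counts), whereas COL1A1, COL1A2, DCN and LUM were high in each library, and THBS4 was at 0 to 14.1 with IL-1β in the first batch. The tendon transcription factors SCX and MKX were lower with IL-1β in each first-batch line. SCX was at 822 to 2110 in first-batch controls and at 9.69 to 205 with IL-1β. MKX was at 792 to 4654 and at 33.6 to 459. Of 5 leukocyte markers, CD3E, CD79A and CSF1R were at most 3 and PTPRC at most 6.46, whereas CD14 reached 2811 in line 5 and was 1195, 1158 and 1482 in line 6 and 0, 1262 and 645 in line 7 (control, IL-1β and IL-1β + IL1Ra). The summed leukocyte list was 0 to 1947 in controls and 0 to 2812 with IL-1β in the first batch, and 0 to 1197, 6.46 to 1268 and 4.25 to 1483 in the control, IL-1β and IL-1β + IL1Ra groups of the second. The adipocyte pair ADIPOQ and PLIN1 summed to 79.8 to 2739 and 295 to 2310 in the first batch and to 51.2 to 6070, 127 to 1666 and 70.6 to 1727 in the second, nearly all from ADIPOQ. The 3 endothelial markers summed to at most 81.6 and EPCAM with KRT8 to at most 11.8 in a library. The summed level of 3 pericyte and muscle genes moved with IL-1β, from 1124 to 2291 in first-batch controls and from 47.0 to 227 with IL-1β. The summed tenocyte list was lower too, at 1.05e+06 to 1.82e+06 in first-batch controls and at 5.07e+05 to 9.36e+05 with IL-1β. In it COL1A1 was at 453618 to 875669 and at 89921 to 297566, whereas DCN and LUM were higher with IL-1β in each line. The part of these or of the other marker lists in the results below was not tested. In bulk RNA, fewer cells of a type and less RNA per cell cannot be told apart.

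In the first batch, IL-1β was accompanied by higher transcripts of one sensor, several chaperones and part of the degradation machinery, and by lower transcripts of the ATF4 targets ASNS and CHAC1, of the transcription factor CREB3L1 and of the procollagen isomerase FKBP10. With limma, 11 of 36 members had an adjusted p under 0.05, beside 27.7% of all 14719 genes tested, so the share of members called was near that of all genes. The 7 that rose were EIF2AK3, HYOU1, DNAJB9, DNAJB11, DNAJC3, SYVN1 and EDEM1, where 13.1% of all genes rose, and the 4 that fell were CREB3L1, CHAC1, ASNS and FKBP10, where 14.6% of all genes fell. With a change of at least 1 on the log2 scale required as well (DE), CREB3L1, CHAC1 and ASNS were lower. Beside them 7.90% of all genes were DE lower, so the share of members was again near that of all genes. Of the members, 0 were DE higher. The share of all genes that were DE higher is not given here, so this 0 has no background beside it. When the tenocyte line entered the fit as a block, which uses that both libraries of a line come from 1 donor, 16 members rose and 4 fell, beside 20.9% and 22.4% of all genes. The median log2-fold change of the 36 members was 0.25, and that of all genes tested was -0.0034.

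The values of the 2 groups did not overlap for 10 members. IL-1β libraries were all above controls for EIF2AK3, HYOU1, DNAJB9, DNAJC3, CANX and SYVN1 (9.34% of all genes behaved so), and all below controls for CREB3L1, CHAC1, ASNS and FKBP10 (10.2% of all genes). Together the 36 members held 0.986% to 1.09% of the normalised counts of a control library and 0.932% to 1.47% of those of an IL-1β library, so the groups overlapped in the total.

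**Figure D1:**
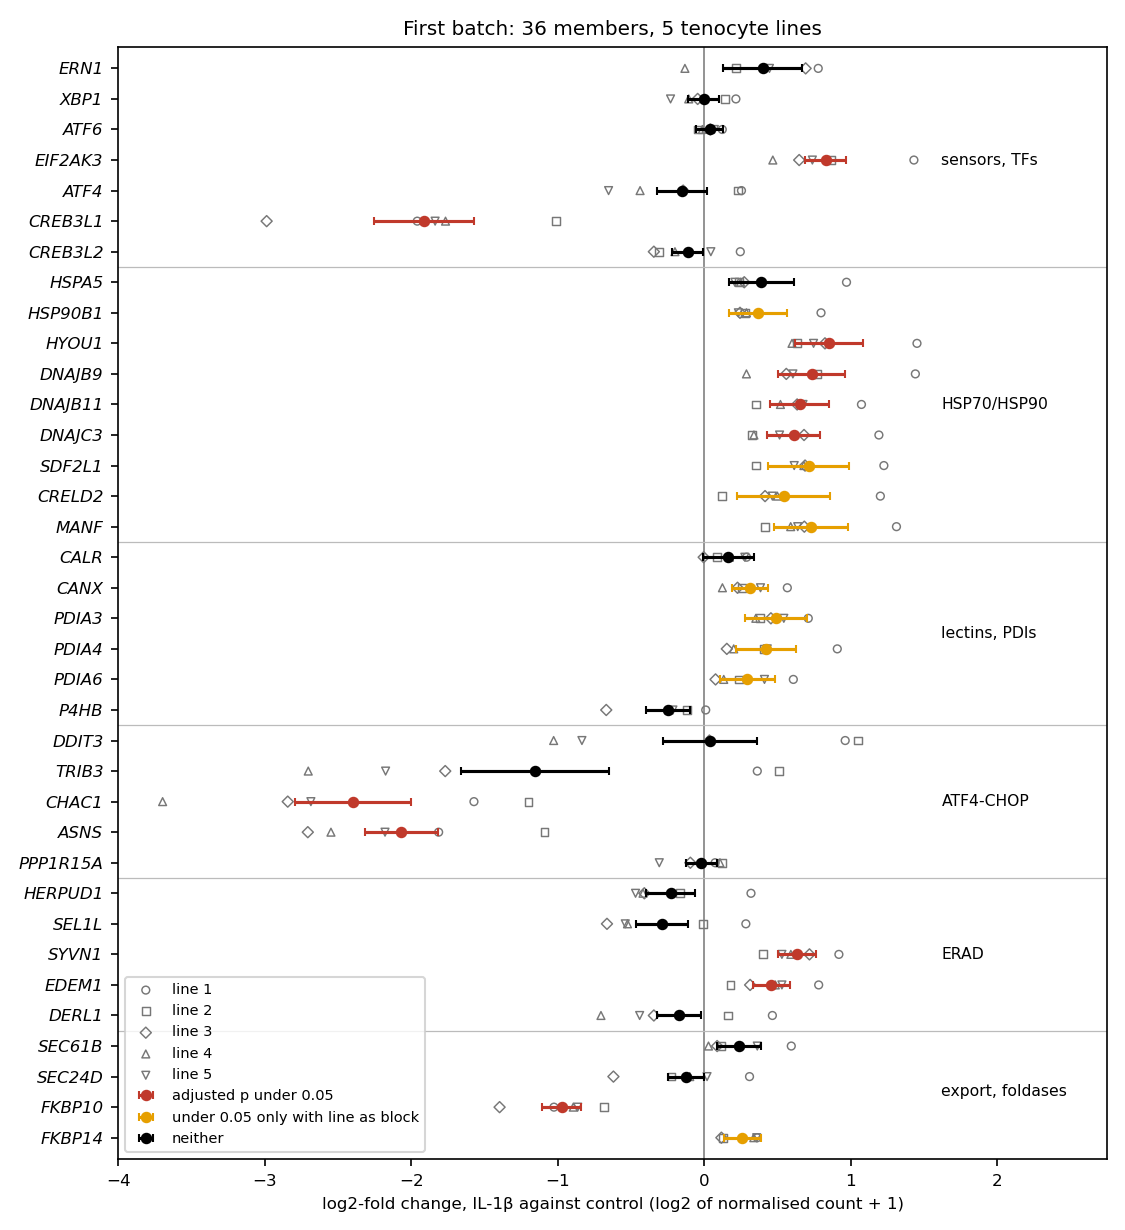
Log2-fold change of each of the 36 members, IL-1β against control, in the first batch (x axis, log2 of normalised count + 1), with the standard error as bars and open symbols for the ratio within each of the 5 lines. All 9 HSP70/HSP90 genes lie to the right of 0 in each line, and CREB3L1, CHAC1, ASNS and FKBP10 lie to the left in each line.

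Among the sensors and transcription factors, EIF2AK3 rose and CREB3L1 fell, and the other 5 did not pass the test. EIF2AK3, which encodes PERK, was at 2473, 2528, 3412, 3362 and 2694 normalised counts in the controls of lines 1 to 5 and at 6674, 4604, 5351, 4654 and 4497 with IL-1β. All 5 IL-1β libraries were above all 5 controls, and the log2-fold change was 0.83 ± 0.14 (SE, n = 5 lines per group, adjusted p = 0.00192). CREB3L1 encodes a membrane-bound transcription factor known for driving type I collagen genes in bone. It was at 4696, 3832, 9648, 7745 and 10727 in the controls and at 1208, 1902, 1217, 2278 and 3004 with IL-1β. The highest IL-1β library was below the lowest control, and CREB3L1 fell by 1.91 ± 0.34 on the log2 scale (adjusted p = 0.00264).

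The log2-fold change of ERN1 was 0.40 ± 0.27 (adjusted p = 0.302, and 0.0538 with the line as a block), with 4 of 5 lines higher. XBP1 and ATF6 had log2-fold changes of -0.0040 ± 0.10 and 0.037 ± 0.092, and their ratios within a line ran from -0.23 to 0.22 and from -0.042 to 0.12. ATF4 transcripts, whose translation is controlled by PERK and related kinases, had a log2-fold change of -0.15 ± 0.17, and CREB3L2, a relative of CREB3L1, one of -0.11 ± 0.11. For ATF4, lines 1 and 2 were higher with IL-1β and lines 3 to 5 were lower.

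All 9 HSP70/HSP90 chaperones and cofactors were higher with IL-1β in each of the 5 lines, which is 45 of 45 ratios. Within a line, 48.7% to 51.5% of all genes tested were higher. The share of all genes higher in each of the 5 lines was not computed, and the 9 genes are not independent replicates. The role groups were also formed with earlier results of these data known, so 45 of 45 describes this group and is not a test. HYOU1, a large HSP70 relative that exchanges nucleotide on BiP, was at 12018, 11802, 7835, 9214 and 11382 normalised counts in the controls of lines 1 to 5. With IL-1β it was at 32900, 18341, 13879, 13964 and 19109. Line 1 had the highest IL-1β value, all IL-1β values exceeded all controls, and HYOU1 rose by 0.85 ± 0.23 on the log2 scale (adjusted p = 0.0201). The J-domain cochaperones rose too. DNAJB9, which binds BiP and IRE1, changed by 0.73 ± 0.23 (adjusted p = 0.0375), from 2528 to 3296 in controls to 3514 to 8774 with IL-1β. DNAJC3, an inhibitor of PERK, changed by 0.61 ± 0.18 (adjusted p = 0.0298), from 5858 to 7669 to 8293 to 16658. DNAJB11, which hands unfolded chains to BiP, changed by 0.65 ± 0.20 (adjusted p = 0.0351), and its groups overlapped, since the line 2 control at 4075 lay above the line 4 IL-1β library at 3665.

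In the fit without a block, these 4 calls were not stable to leaving out a line, and no leave-out fit was run with the block. The leave-out log2-fold changes were 0.70 to 0.92 for HYOU1 and 0.56 to 0.85 for DNAJB9. They were 0.46 to 0.68 for DNAJC3 and 0.55 to 0.73 for DNAJB11. HYOU1 lost its call without line 2 (adjusted p = 0.0535) or line 5 (0.0717). DNAJB9 and DNAJC3 lost theirs without line 2, 3, 4 or 5, at adjusted p of 0.0517 to 0.0981 and 0.0531 to 0.0888, and DNAJB9 also lost its call in the fit without trend (0.0519). DNAJB11 lost its call without any of lines 1 to 5 (0.0518 to 0.114). With the line as a block they had adjusted p of 0.00338, 0.0107, 0.0117 and 0.00371 in the order HYOU1, DNAJB9, DNAJC3 and DNAJB11.

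HSP90B1, SDF2L1, CRELD2 and MANF did not pass in the fit without a block and passed with the line as a block. MANF, a small ER protein that can be secreted, had a log2-fold change of 0.73 ± 0.25 (adjusted p = 0.0544, 0.00523 with the block, and 0.0467 without it when libraries were scaled to the same total). SDF2L1, a partner of the DNAJB cochaperones, had one of 0.71 ± 0.27 (0.0781, and 0.00477 with the block). CRELD2, an ER protein with isomerase-like activity, had one of 0.54 ± 0.32 (0.234, and 0.0245 with the block), and HSP90B1, the HSP90 of the ER, one of 0.37 ± 0.20 (0.189, and 0.0412 with the block). MANF, SDF2L1 and CRELD2 had control libraries that differed between lines, at 3695 to 7134, 930 to 1901 and 1918 to 4409 normalised counts, with line 2 the highest each time.

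HSPA5, which encodes BiP, the central HSP70 of the ER and the usual reporter of ER stress, did not pass either fit. It was at 36372, 35201, 25098, 28336 and 32731 in the controls of lines 1 to 5 and at 71328, 41569, 30349, 33683 and 37857 with IL-1β. Only the line 1 IL-1β library lay far above the others. The log2-fold change was 0.39 ± 0.22 (adjusted p = 0.220, and 0.0601 with the block), with ratios of 0.21 to 0.27 in lines 2 to 5 and 0.97 in line 1.

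Of the lectin chaperones and protein disulfide isomerases, 0 of 6 passed the limma test without the block, and 4 rose with the line as a block. The unadjusted p was under 0.05 for 2 of the 6, beside 5814 of all 14719 genes tested. CANX, the membrane-bound lectin chaperone, was at 34905, 33288, 30975, 33030 and 30567 in the controls and at 51741, 39815, 36287, 36020 and 39927 with IL-1β. The groups did not overlap, and the log2-fold change was 0.31 ± 0.12 (adjusted p = 0.0784, and 0.0423 with the block). PDIA3, the isomerase that works with CANX and CALR on glycoproteins, had a log2-fold change of 0.49 ± 0.21 (0.110, and 0.00770 with the block). PDIA4 and PDIA6 had values of 0.42 ± 0.20 and 0.29 ± 0.19, with adjusted p of 0.154 and 0.273, and of 0.0282 and 0.0478 with the block. CALR, the soluble lectin chaperone and calcium store, had a log2-fold change of 0.16 ± 0.17 (adjusted p = 0.524). P4HB is both an isomerase and the beta subunit of the prolyl 4-hydroxylase that modifies collagen. Its log2-fold change was -0.24 ± 0.15 (adjusted p = 0.248), with 4 of 5 lines lower.

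The ATF4-CHOP output held the largest changes of the members. ASNS, which makes asparagine, was at 6443, 4137, 7801, 9656 and 10048 in the controls of lines 1 to 5 and at 1835, 1945, 1195, 1651 and 2219 with IL-1β. CHAC1, which degrades glutathione, was at 879, 877, 734, 1864 and 1666 in the controls and at 295, 381, 102, 143 and 258 with IL-1β. For both genes every IL-1β library was below every control, and line 2 had the smallest difference. ASNS fell by 2.07 ± 0.25 on the log2 scale (adjusted p = 0.000303) and CHAC1 fell by 2.40 ± 0.40 (adjusted p = 0.00182).

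The other 3 genes of this group did not pass. TRIB3, a pseudokinase that damps ATF4 and CHOP signalling, had a log2-fold change of -1.15 ± 0.51 (adjusted p = 0.116), and its lines went different ways. Its ratios within a line were 0.36 and 0.51 in lines 1 and 2, and -1.77, -2.70 and -2.17 in lines 3 to 5. DDIT3, the transcription factor CHOP, showed a like split, with ratios of 0.96, 1.05, 0.036, -1.03 and -0.83 in lines 1 to 5 and a log2-fold change of 0.037 ± 0.32. PPP1R15A, which directs a phosphatase to eIF2α and so restores translation, had ratios of -0.31 to 0.12.

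In ER-associated degradation, by which misfolded proteins are passed to the proteasome, 2 of 5 measured members rose and 3 did not pass. SYVN1, the ubiquitin ligase of the pathway, was at 2337, 2241, 1775, 1991 and 2224 in the controls and at 4423, 2960, 2922, 3000 and 3213 with IL-1β. The groups did not overlap and SYVN1 rose by 0.63 ± 0.13 on the log2 scale (adjusted p = 0.00525). EDEM1, which helps select misfolded glycoproteins, was at 11040, 15806, 11021, 12722 and 12737 in the controls and at 18983, 17909, 13705, 17816 and 18403 with IL-1β. The line 3 IL-1β library was below the line 2 control, and EDEM1 rose by 0.46 ± 0.13 (adjusted p = 0.0221). It lost its call without line 1, 4 or 5 (adjusted p of 0.0968, 0.0743 and 0.0945). SEL1L, the adaptor that holds SYVN1, had a log2-fold change of -0.29 ± 0.18 (adjusted p = 0.256). HERPUD1, a membrane scaffold of the ligase complex, had one of -0.23 ± 0.17 (0.344) and DERL1, part of the export channel, one of -0.17 ± 0.15 (0.426).

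Of the 4 members for translocation, export and collagen folding, FKBP10 fell. FKBP10 is a prolyl isomerase of the ER that acts on procollagen. It was at 18693, 16726, 21408, 19583 and 23056 in the controls of lines 1 to 5 and at 9184, 10405, 8137, 10543 and 12675 with IL-1β. The groups were apart, and FKBP10 fell by 0.97 ± 0.13 on the log2 scale (adjusted p = 0.000616). FKBP14, a related isomerase, had a log2-fold change of 0.26 ± 0.13 (adjusted p = 0.152, and 0.0228 with the line as a block), with 5 of 5 lines higher. SEC61B, a subunit of the channel through which new chains enter the ER, had one of 0.24 ± 0.15 (0.272), and SEC24D, which loads cargo into COPII vesicles, one of -0.12 ± 0.12 (0.499).

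**Figure D2:**
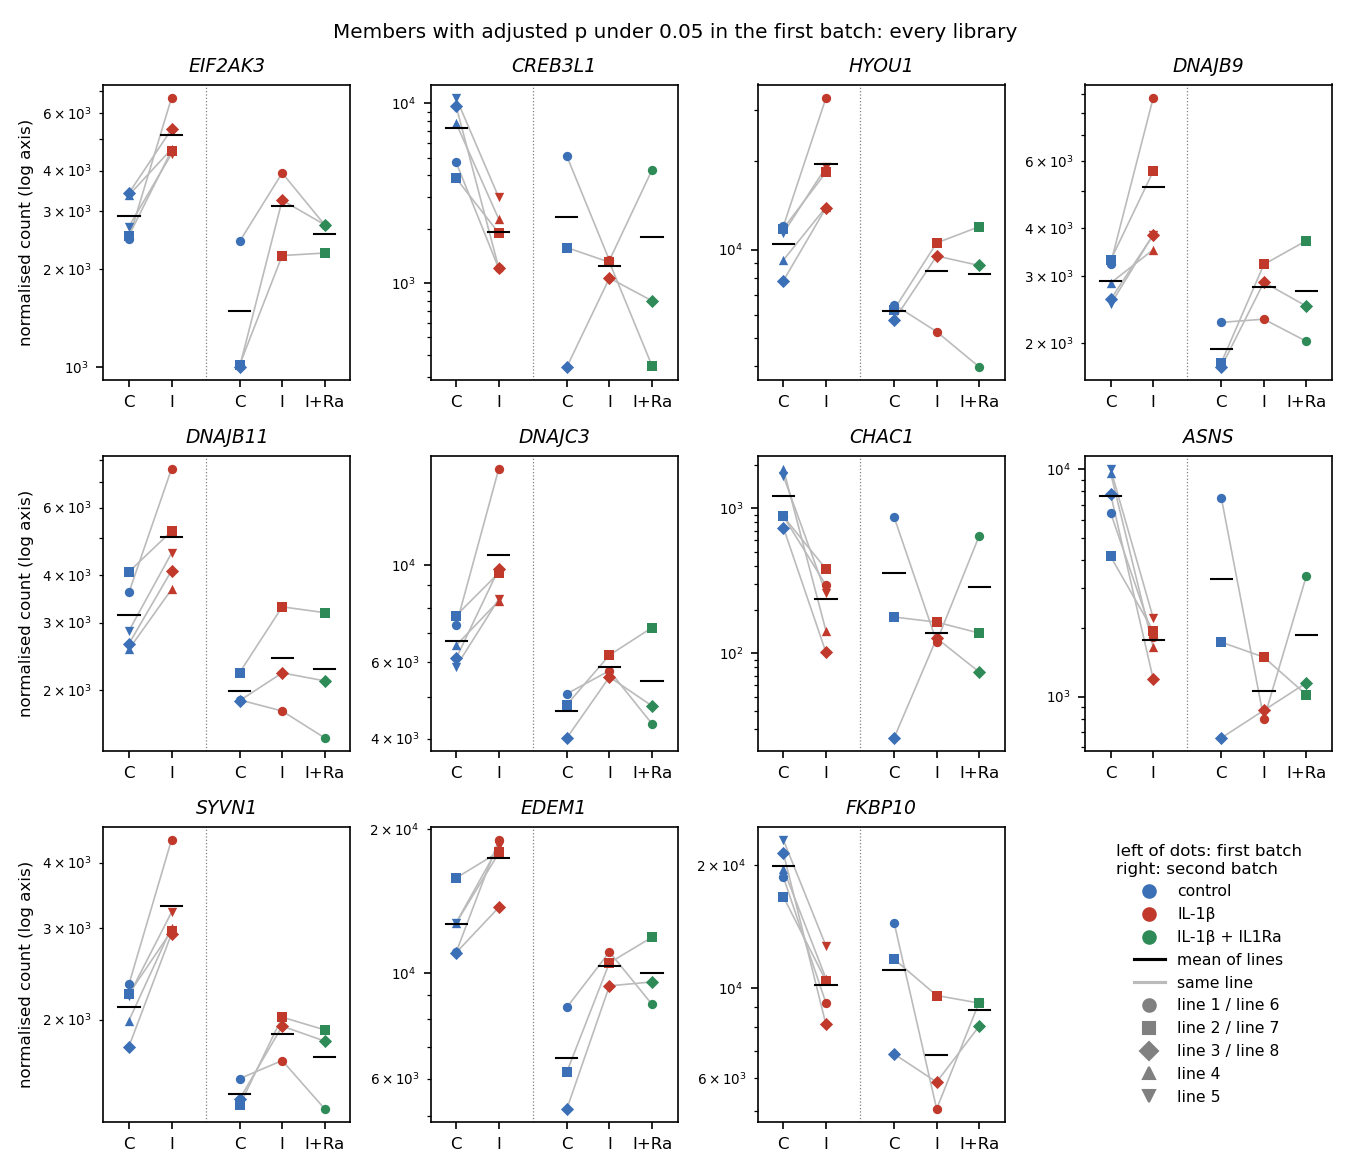
Normalised count (log y axis) in every library for the 11 members with adjusted p under 0.05 in the first batch, with control (C), IL-1β (I) and IL-1β + IL1Ra (I+Ra), grey lines joining libraries of a tenocyte line and black bars for group means. In the first batch every line moves the same way for each gene, and in the second batch CREB3L1, CHAC1 and ASNS start from controls that differ widely, such as 26 to 871 normalised counts for CHAC1.

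Other genes of the same pathways were counted in lists, to be read against the 13.1% of all genes that rose and the 14.6% that fell. With the line as a block, these shares of all genes were 20.9% and 22.4%. The same shares apply to the lists in the next paragraph. Of 22 tested genes of the ATF4 pathway, 3 rose and 11 fell, with a median log2-fold change of -0.53. The 2 largest changes in this list were in PHGDH, the first enzyme of serine synthesis, at -3.62 ± 0.36 (adjusted p = 0.000132), and STC2, a secreted glycoprotein, at -3.09 ± 0.41 (0.000576). Of 10 other sensors and regulators, 6 rose and 0 fell (1 fell with the line as a block). Their largest changes were in BHLHA15, a transcription factor of secretory cells, at 1.92 ± 0.63 (0.0445), and CREB3L4, a relative of CREB3L1, at 1.87 ± 0.23 (0.000388).

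Of 18 other ER-associated degradation genes, 7 rose and 1 fell (11 and 1 with the line as a block), with a median log2-fold change of 0.28. VCP, the ATPase that extracts substrates from the membrane, changed by 0.80 ± 0.16 (adjusted p = 0.00467) and SELENOK, a selenoprotein of the ER membrane, by 0.68 ± 0.19 (0.0209). Of 25 other ER folding genes, 2 rose and 5 fell, or 6 and 5 with the line as a block, with a median of -0.037. ERO1A, the oxidase that recharges disulfide isomerases, changed by -1.05 ± 0.26 (0.0142) and RCN1, a calcium-binding ER protein, by -0.58 ± 0.15 (0.0161). Of 30 other translocation and signal peptidase genes, 4 rose and 1 fell, or 10 and 1 with the line as a block, with TRAM2, which has been linked to collagen synthesis, at -0.91 ± 0.19 (0.00531) and SEC11C, a signal peptidase subunit, at 0.87 ± 0.26 (0.0312). Of 20 other ER export genes, 5 rose and 2 fell, with SEC23B, a COPII coat subunit, at 0.69 ± 0.15 (0.00718) and KDELR3, a receptor that returns proteins to the ER, at -0.52 ± 0.13 (0.0113).

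The lines differed in the size of the change. In line 1, 32 of 36 members were higher with IL-1β, with a median log2 ratio of 0.58, and in lines 2, 3, 4 and 5 there were 26, 21, 20 and 23, with medians of 0.20, 0.084, 0.12 and 0.26. The median ratio of the 9 HSP70/HSP90 genes was 1.20 in line 1, 0.35 in line 2, 0.63 in line 3, 0.50 in line 4 and 0.61 in line 5. The median over all genes tested lay between -0.018 and 0.017 in these lines. With 1 library per condition in a line, these ratios have no error of their own.

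**Figure D3:**
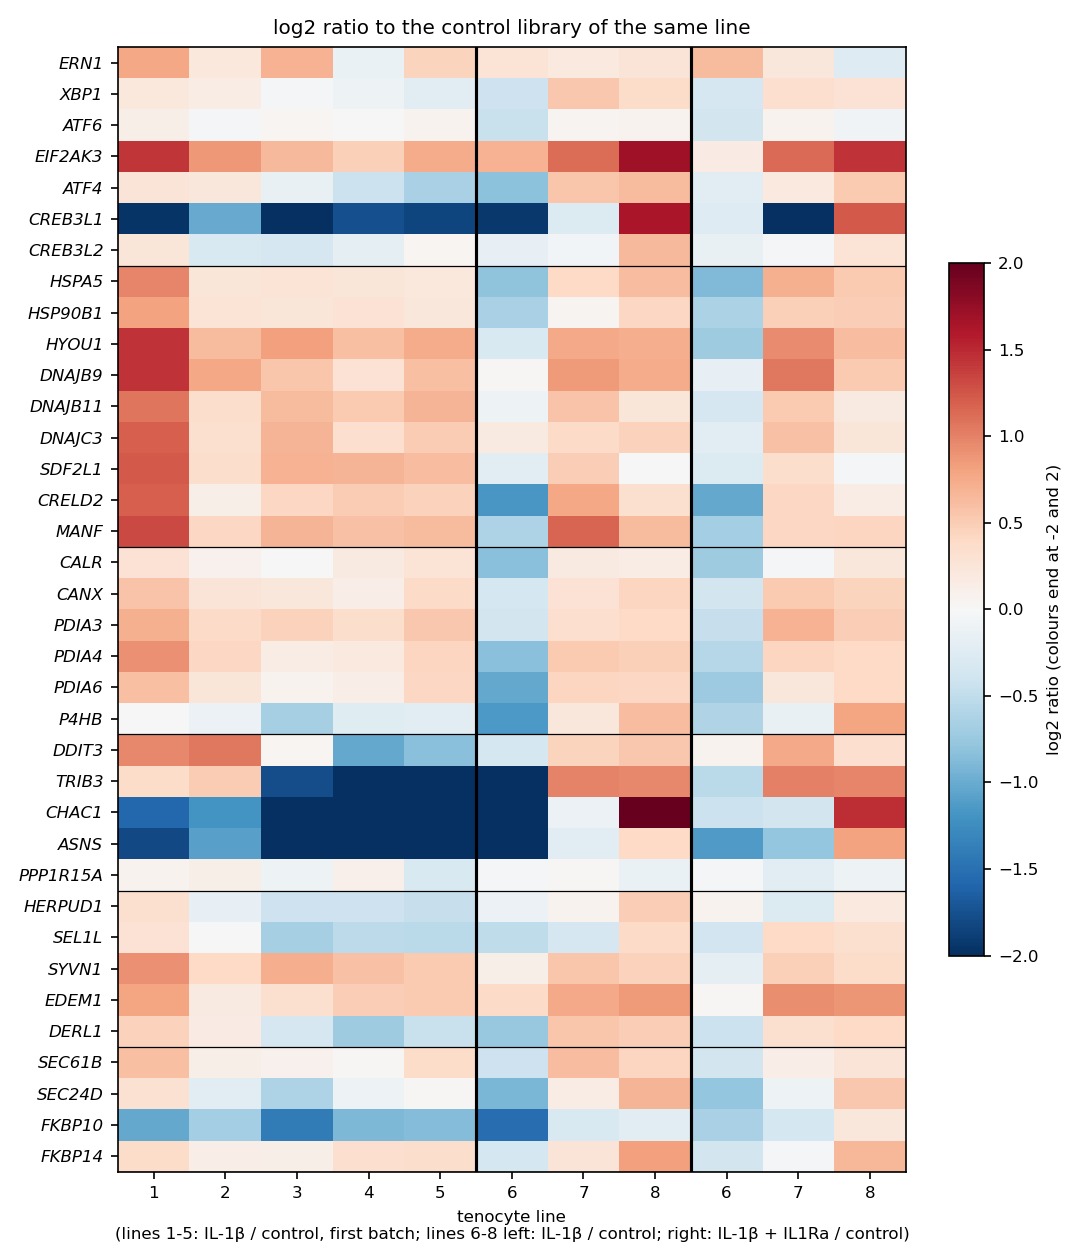
Log2 ratio of each member to the control library of the same line (colour, ending at -2 and 2), with lines 1 to 5 (IL-1β) on the left, lines 6 to 8 with IL-1β in the middle and lines 6 to 8 with IL-1β + IL1Ra on the right. The rows of the HSP70/HSP90 genes are red throughout the first batch and are mostly blue in line 6.

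In the second batch, IL-1β gave 0 members with an adjusted p under 0.05 with limma, beside 0.341% of the 16705 genes tested. The unadjusted p was under 0.05 for 1907 of these 16705 genes and for 2 members. IL6 was at 127, 663 and 216 normalised counts in the controls of lines 6 to 8 and at 168090, 136543 and 137101 with IL-1β. With the line as a block 1 member, EIF2AK3, rose, beside 6.10% of all genes in either direction. EIF2AK3 was at 2426, 1015 and 1001 in the controls and at 3932, 2196 and 3245 with IL-1β. It was higher in each line, although the line 6 control lay above the line 7 IL-1β library, and its log2-fold change was 1.17 ± 0.37 (adjusted p = 0.265, and 0.0408 with the block). The other member with an unadjusted p under 0.05 was EDEM1, at 0.67 ± 0.23 (adjusted p = 0.302), with 8468, 6200 and 5184 in the controls and 11057, 10496 and 9392 with IL-1β.

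IL-1β libraries lay above all controls for 4 members, DNAJB9, DNAJC3, SYVN1 and EDEM1 (8.82% of all genes), and below them for 0 members (7.61% of all genes). DNAJB9, DNAJC3 and SYVN1 had log2-fold changes of 0.54 ± 0.25, 0.34 ± 0.22 and 0.38 ± 0.18, with adjusted p of 0.468, 0.641 and 0.468. FKBP10 was lower in 3 of 3 lines, from 14466, 11769 and 6888 to 5050, 9581 and 5878, with a log2-fold change of -0.68 ± 0.33 (adjusted p = 0.484).

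Line 6 differed from lines 7 and 8. With IL-1β, 6 of 36 members were higher than control in line 6, against 30 in line 7 and 33 in line 8, and the median log2 ratios were -0.43, 0.39 and 0.47. Of the 9 HSP70/HSP90 genes, 2 were higher in line 6, 9 in line 7 and 8 in line 8, and of the 6 lectin chaperones and isomerases 0, 6 and 6 were higher. HSPA5 was at 24780 in the control and 14153 with IL-1β in line 6, at 21830 and 28877 in line 7, and at 15034 and 22978 in line 8. The median over all genes was between -0.0080 and 0.0080 in the 3 lines, and 50.4%, 49.2% and 49.9% of all genes were higher in lines 6 to 8. A difference between single lines could not be tested, since a line has 1 library per condition.

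Among the ATF4 targets, ASNS and CHAC1 were higher with IL-1β in line 8 and lower in lines 6 and 7. ASNS was at 7503, 1735 and 657 in the controls of lines 6 to 8 and at 797, 1490 and 869 with IL-1β, and CHAC1 was at 871, 178 and 26 in the controls and at 120, 164 and 127 with IL-1β. The log2 ratios were -3.23 and -2.85 in line 6, -0.22 and -0.12 in line 7, and 0.40 and 2.24 in line 8, whose control was the lowest. CREB3L1 followed this order, at 5090, 1578 and 342 in the controls and at 1340, 1309 and 1068 with IL-1β. Log2-fold changes were -1.02 ± 0.84 for ASNS, -0.24 ± 1.21 for CHAC1 and -0.18 ± 1.08 for CREB3L1, and without line 6 they were 0.092, 1.06 and 0.68. Of the tenocyte markers, COL1A1, COL1A2, SCX, MKX and LUM also fell in this order across the controls of lines 6 to 8. COL1A1 was at 332642, 221346 and 87792, and SCX at 4720, 266 and 105. DCN and THBS4 did not keep this order. DCN was at 55627, 29947 and 42147, THBS4 was at 632, 14.1 and 16.4, and TNMD was not detected. The part of these culture differences in the result was not tested.

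With IL-1β + IL1Ra against control, 0 members had an adjusted p under 0.05 (0.0120% of all genes), also with the line as a block (0.251% of all genes). The unadjusted p was under 0.05 for 948 of all 16705 genes tested and for 2 members. These were EIF2AK3, whose IL-1β + IL1Ra libraries held 2724, 2235 and 2728 (lines 6 to 8), with a log2-fold change of 0.92 ± 0.37 (adjusted p = 0.834), and EDEM1, at 8589, 11872 and 9568 and 0.61 ± 0.23 (0.822). EDEM1 was the one member whose 3 values lay above all controls (5.79% of all genes), and 0 members lay below them (5.96% of all genes). In line 6, 5 of 36 members were higher than control, in line 7, 25, and in line 8, 32, beside 51.4%, 50.3% and 49.8% of all genes. HYOU1 was at 3981, 11971 and 8830 with IL-1β + IL1Ra, beside 6500, 6249 and 5751 in the controls, so line 6 was below its control and the other two were above theirs.

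Between IL-1β + IL1Ra and IL-1β, 0 members had an adjusted p under 0.05 (0.0% of all genes), also with the block (0.00599% of all genes). The unadjusted p was under 0.05 for 464 of all 16705 genes tested and for 0 members. The groups were apart for 0 members in either direction (3.12% of all genes higher and 3.35% lower). The log2-fold changes of the 36 members ran from -0.34 (MANF) to 0.87 (TRIB3), with a median standard error of 0.32. IL6 itself was at 13776, 201720 and 119246 with IL-1β + IL1Ra in lines 6 to 8, so its level was well below that with IL-1β in line 6 only. In line 6 the ATF4 targets were higher with IL-1β + IL1Ra than with IL-1β, with ASNS at 3409 against 797, CHAC1 at 646 against 120 and TRIB3 at 674 against 111, whereas the HSP70/HSP90 genes were not, with 2 of 9 higher. In lines 7 and 8 the ratio of ASNS was -0.55 and 0.40, and that of CHAC1 -0.25 and -0.77. For the 9 HSP70/HSP90 genes the median standard error was 0.42, and with the line as a block their standard errors were 0.18 to 0.35. With DESeq2, the study itself reported DE genes in each comparison of the second batch, also in this one. The tests differ, so 0 called members here does not show an absent response.

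The 2 batches share no samples, so the change with IL-1β can be set side by side. Of 36 members, 26 had the same sign of log2-fold change in both batches, among them the 11 called in the first batch, and 9 of these 11 were smaller in the second batch. EIF2AK3 and EDEM1 were the exceptions, at 0.83 and 0.46 in the first batch and at 1.17 and 0.67 in the second. HYOU1 had 0.85 and 0.39, CREB3L1 -1.91 and -0.18, CHAC1 -2.40 and -0.24, ASNS -2.07 and -1.02, and FKBP10 -0.97 and -0.68. The 11 were picked by their first-batch values, so 9 being smaller does not show a weaker response in the second batch. The share of all genes with the same sign was not computed, so the counts of same signs have no background beside them. Across the 36 genes, Pearson's r was 0.72 and Spearman's rho was 0.74, as a description, since genes are not independent replicates. Whether the changes differ between batches was not tested, and the batches hold different tenocyte lines.

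**Figure D4:**
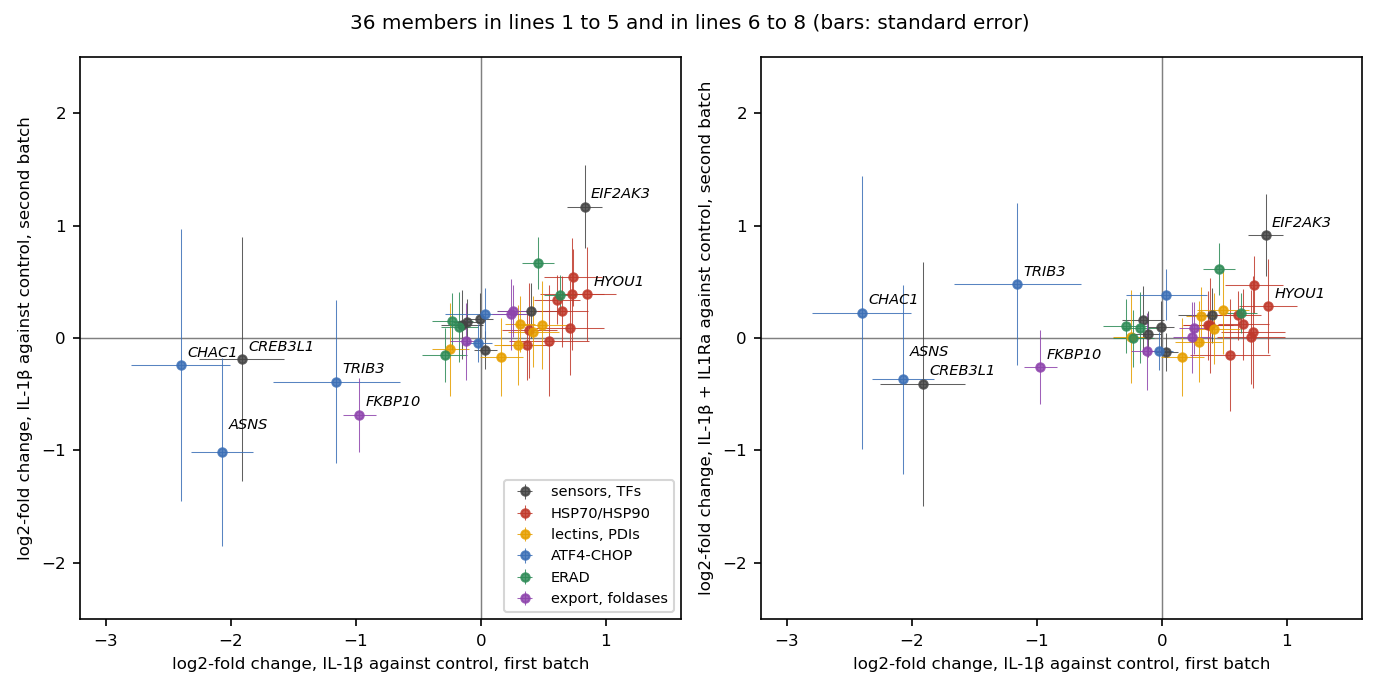
Log2-fold change of the 36 members in the second batch (y axes, IL-1β on the left and IL-1β + IL1Ra on the right, each against control) against that of IL-1β in the first batch (x axes), with standard errors as bars and colours for roles. EIF2AK3 lies at 0.83 and 1.17 in the left panel, and the vertical bars of CHAC1, CREB3L1 and ASNS are long, at 1.21, 1.08 and 0.84.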

How the data were processed

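Per the labels and the study's methods, the authors quantified stranded paired-end mRNA reads with Salmon on EquCab3.0 transcripts. The authors summed transcripts per gene by tximport and normalised each batch with DESeq2 1.36 in R 4.2.1. The deposited signal values are these normalised counts, with 1 table of 29196 gene names per batch. Whole reads could not be recovered (40.5% to 60.4% of low values were whole within 0.05), so no count model was fitted, and true read depth is not given by the tables.

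Here, log2(normalised count + 1) was modelled within each batch by limma 3.58.1 under R 4.3.3, using lmFit and eBayes with trend. Genes entered with a normalised count of 10 or more in 5 or more libraries of the first batch (14719 genes) or in 3 or more of the second (16705 genes). All 36 members with a row passed this filter in both batches. P-values were adjusted by Benjamini-Hochberg over all genes tested, and the pseudocount understates changes of low genes. Called means an adjusted p under 0.05, and DE means that the log2-fold change was also 1 or more in size. The 3 groups of the second batch shared 1 fit. A ratio within a line is the difference of 2 log2 values. At or under 3 normalised counts was taken as not detected. The fits were tested on simulated data.

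Lines were numbered in the order of the records. Libraries of 1 line come from 1 donor, so the lines pair the libraries: deviations from group means gave r of 0.351 to 0.578 in 5 first-batch pairs of the same line and of -0.356 to 0.288 in the 20 pairs of different lines. For the second batch, 9 same-line pairs had 0.535 to 0.794, and 18 pairs of different lines had -0.625 to 0.249. The study's methods name no block, so the fit without one was primary and blocked values stand beside results whose call they change.

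Alternatives were other pseudocounts, filters and scalings, no trend, fits on 2 groups, the block, and leaving out each line. All 37 members are named by role, and of every other list at most the 2 called genes with the largest first-batch change. Members, lists and tests were chosen with earlier results of these data known. All 37 symbols matched RefSeq symbols of a newer horse assembly (23397 of 29196 names did), so no coordinates are given. No 2 libraries were identical.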

Additional observations from a re-analysis of the deposited data

Results flagged for a closer look

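For the 36 members, the 72 groups of 5 libraries in the first batch were checked for a library that stands apart, by its gap to the nearest other library as a share of the range of the group (Dixon's critical value for 5 samples is 0.71, and about 1 in 20 groups passes by chance). In 5 groups this was so. Line 1 was the highest IL-1β library for DNAJC3, with a gap of 0.759 of the range (16658 against 9813 normalised counts), for SYVN1, with 0.771 (4423 against 3213), and for CANX, with 0.716 (51741 against 39927). Line 3 was the lowest IL-1β library for EDEM1, with 0.805 (13705 against 17816). Line 2 was the highest control for SEC61B, with 0.835 (6989 against 5138). Without line 1, the log2-fold changes with IL-1β were 0.46 for DNAJC3, 0.56 for SYVN1 and 0.25 for CANX. No member moved one way in every line of 1 batch and the other way in every line of the other.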

How the results depend on the processing

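The count of called members in the first batch, 11, was 20 in the paired fit with the replicate block. In fits without the block it was 6 to 9 when 1 line was left out (7 without line 2, 7 without line 4 and 6 without line 5). Of the 11, 6 kept their call in each of these leave-out fits. The other alternatives kept it within 1.5 times, and the 3 DE genes of the first batch stayed within this range too. In the second batch the replicate block moved the called and the DE members with IL-1β from 0 to 1 and 1, and it changed no call with IL1Ra. When 1 line was left out, 4 of 36 members took both signs in the first batch, 24 in the second with IL-1β, 24 with IL-1β + IL1Ra against control and 18 between IL-1β + IL1Ra and IL-1β, and 0 of these had passed the test. In the first batch XBP1 ranged from -0.059 to 0.052, DDIT3 from -0.22 to 0.30, PPP1R15A from -0.054 to 0.052 and SEC24D from -0.23 to 0.0020. Of the 11 members called in the first batch, those that took both signs in the second are given here. With IL-1β, CREB3L1 ranged from -1.10 to 0.68, CHAC1 from -1.48 to 1.06 and ASNS from -1.73 to 0.092. With IL-1β + IL1Ra against control, CREB3L1 ranged from -1.22 to 0.48, HYOU1 from -0.044 to 0.78, DNAJB11 from -0.079 to 0.35, CHAC1 from -0.40 to 0.56 and ASNS from -0.95 to 0.017. Between IL-1β + IL1Ra and IL-1β, CREB3L1 ranged from -1.17 to 0.62, HYOU1 from -0.25 to 0.038, DNAJB9 from -0.20 to 0.0070, CHAC1 from -0.51 to 1.08, ASNS from -0.075 to 1.25 and EDEM1 from -0.17 to 0.10. Scaling each library to the same total moved the median of all genes in the second batch to -0.19 with IL-1β and to 0.11 between IL-1β + IL1Ra and IL-1β, and there turned DNAJB9 and EDEM1 to 0.037 and 0.048. The cause of these changes was not tested.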
